A study of Chlorocebus aethiops with 8 samples.

Results

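The genes described here are 10 that belong to the unfolded protein response and to the return of escaped proteins to the endoplasmic reticulum (ER): XBP1, HSPA5, HSP90B1, DNAJB9, HERPUD1, DERL1, DERL2, KDELR2, PDIA4 and SDF2L1. They were taken as every probe set that the array annotation pairs with exactly 1 of these symbols. Of the 10 genes, 8 had such a probe set, out of 14132 genes with one on the whole array; HSPA5 and DNAJB9 were not analysed here. The 8 genes had 20 probe sets, of which 16 were bright enough to be tested, at least 1 for each gene, and 4 were too dim (1 each of XBP1, HSP90B1, DERL1 and KDELR2). The group was chosen by the measured RHA against control values of XBP1, DERL2 and KDELR2, which were higher under RHA siRNA in these same arrays, so the siRNA values of the 8 genes are a description and carry no test.

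The RNA came from COS cells, a kidney line of the African green monkey that carries the SV40 large T antigen, and was read on 8 Affymetrix rhesus macaque arrays, so the probes are those of a related species. All cells received siRNA at 0.5 nM, either scrambled control siRNAs or a pair of siRNAs to RNA helicase A (RHA, gene DHX9). The pair was designed on the human coding sequence, at nucleotides 2701 to 2721 and at nucleotides 2784 to 2803. After 4 h without serum and 24 h in 10% serum, the cells were split and transfected a second time. There were 4 groups of 2 arrays: cytoplasmic RNA under control or RHA siRNA, and polysomal RNA (mRNA bound to several ribosomes) under control or RHA siRNA. The series asks which mRNAs change their polysome loading when RHA is lowered. The labels number the arrays of each group 1 and 2, and the 4 arrays of a number are called set 1 and set 2 here. The labels do not state whether the sets are separate cultures, so each p-value reflects the spread from array to array, which may be technical.

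The unfolded protein response is the way a cell answers a load of unfolded protein in the ER. Sensors in the ER membrane act through the transcription factors XBP1, ATF6 and ATF4, whose targets include chaperones and folding enzymes, the machinery that pulls failed proteins back to the cytosol for destruction (ER-associated degradation, ERAD), and components of transport between the ER and the Golgi. XBP1 becomes its active form when the sensor IRE1 (ERN1) removes a short intron from its mRNA. KDEL receptors bind the C-terminal retrieval signal of chaperones that have escaped to the Golgi and carry them back. Helicase A unwinds RNA and is known as a factor for the translation of some mRNAs with structured leaders.

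All 8 arrays had a similar median intensity, between 19.3 and 20.8, but the sets differed strongly. Of 26383 probe sets tested, 7077 (26.8%) differed on average at least 2-fold between set 1 and set 2, and within its set the set 1 array of cytoplasmic RNA under control siRNA was the odd one: its median Pearson's r to the others, across probe sets, was 0.949, while the remaining arrays reached 0.967 or more. For DHX9, cytoplasmic control arrays read 244 (set 1) and 342 (set 2) and cytoplasmic RHA arrays 130.1 and 254. Its polysomal values were 359 and 477 under control and 97.2 and 269 under RHA siRNA, so that it was lower in 4 of 4 within-set comparisons, at 49.5% of control (log2 -1.01, SE 0.42). The other DHX9 probe sets were too dim to test and differed. Over both fractions they read log2 -0.71, 0.02 and -0.63 in set 1 and, in the same order, -0.62, -0.02 and 0.005 in set 2. Of 6 epithelial markers 5 were tested, of 7 kidney tubule markers 3 and of 8 fibroblast and mesenchymal markers 6. The brightest of each list were EPCAM (median intensity 354), AQP1 (1267) and VIM (4593). The other tested ones read 24.8 (KRT18) to 84.8 (KRT8), 30.3 (CDH16) and 81.0 (PAX8), and 32.4 (THY1) to 667.5 (FN1), in that order. CDH1, PAX2, LRP2, UMOD, SLC12A1, the mesenchymal COL1A2, the leukocyte gene PTPRC and the plasma cell gene JCHAIN were too dim to test. SPARC had no probe set. Of the 5 leukocyte markers 2 were tested, LYZ (median intensity 56.9) and CD68 (132). Of 4 plasma cell markers, a secretory cell type rich in the genes described here, 3 were tested, among them SDC1 with intensities between 217 and 437.

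Most of the measured unfolded protein response genes read higher under RHA siRNA. The intensity of the brightest probe set of each gene is used throughout, on a log2 scale for differences. Averaged over both fractions, 7 of 8 genes were above control, with a median log2 fold change of 0.72 against 0.03 over all 10106 genes tested, of which 53.8% were above 0. Leaving out single arrays, the median of the 8 genes lay between 0.45, without the control array of set 2 in either fraction, and 0.73. This and later values with an array left out are from the model without a term for the set, unless stated. A left-out array then leaves the sets unequal between groups, so part of the set difference enters the value. In polysomal RNA alone it was 0.48, but 0.24 without the control array and 0.30 without the RHA array of set 2 and 0.77 without the RHA array of set 1, and in cytoplasmic RNA it was 0.80, but 0.39 without the control array and 0.47 without the RHA array of set 2. As deposited, XBP1, HERPUD1, DERL1, DERL2 and KDELR2 were higher in each of the 4 within-set comparisons (cytoplasmic and polysomal, set 1 and set 2), 5 of 8, as were 10.4% of all genes. The members of this count depended on the scaling. After quantile normalization or median centring HERPUD1 and DERL1 were higher in 3 of 4 and SDF2L1 in 4 of 4. No gene of the 8 was lower in all 4 as deposited, as were 9.76% of all genes; after quantile normalization HSP90B1 was. XBP1 and KDELR2, 2 of the 8, were higher with no overlap between the 4 RHA and the 4 control arrays, as were 1.86% of all genes, and no gene was lower without overlap, as were 1.46%. Since the genes were chosen with this contrast in view, nothing is read from these counts. In cytoplasmic RNA 6 of 8 were higher in both sets (29.3% of all genes), and in polysomal RNA 5 of 8 (27.3%). In bulk RNA, more transcript in each cell and more cells with the transcript cannot be told apart.

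**Figure D1:**
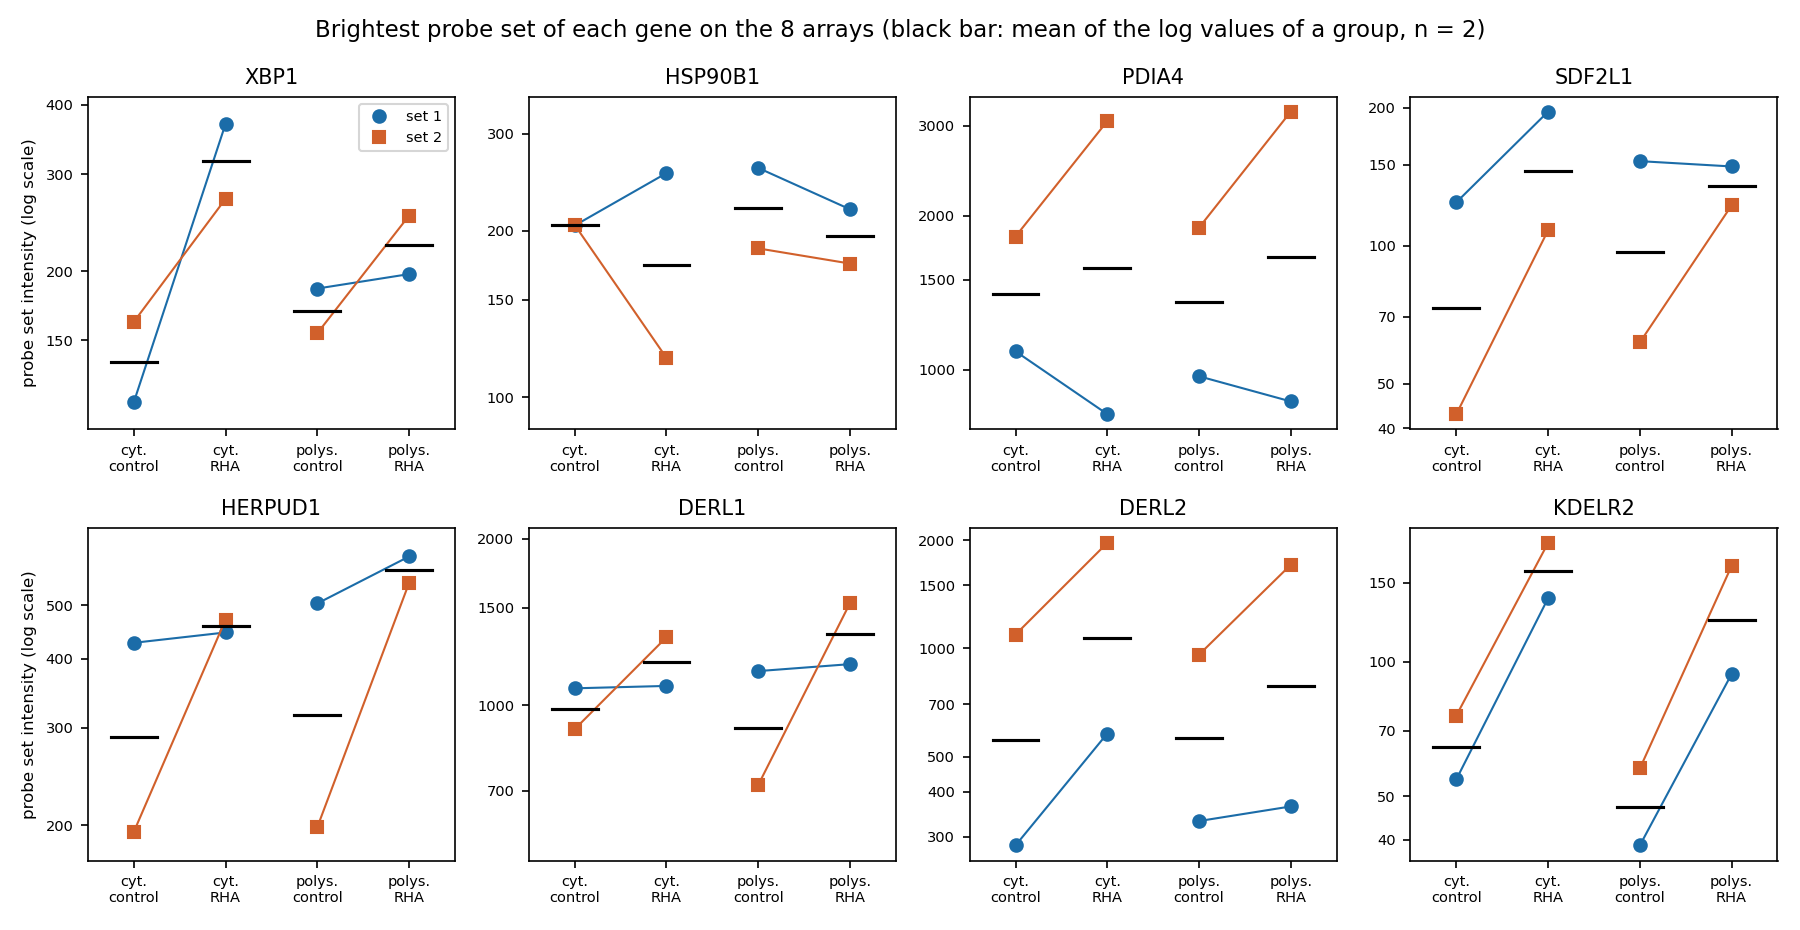
Intensity of the brightest probe set of each of the 8 genes on the 8 arrays (log axis), with sets 1 and 2 joined by lines within a fraction and a black bar at the mean of the log values of a group (n = 2). KDELR2 and XBP1 have all 4 RHA arrays above all 4 control arrays, while PDIA4 moves in opposite directions in the sets.

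In the test over all probe sets, limma with Benjamini-Hochberg adjustment called 0% of 26383 probe sets for RHA against control siRNA over both fractions, 0% in cytoplasmic RNA and 0% in polysomal RNA. The unadjusted p was under 0.05 for 540, 426 and 137 probe sets. With the set number as a term in the model, limma called 0.00758% (2 probe sets) over both fractions, and 0% in each fraction alone, with 3156, 3174 and 1334 at an unadjusted p under 0.05.

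XBP1 encodes the transcription factor that drives much of the chaperone, ERAD and secretory programme. Its cytoplasmic intensity was 116 (set 1) and 162 (set 2) under control and 369.9 and 271 under RHA siRNA. The polysomal intensity was 186 and 155 under control and 198 and 252 under RHA siRNA. The highest control array (186) lay below the lowest RHA array (198), by a narrow margin in polysomal RNA of set 1. Within the sets this was 3.19-fold and 1.67-fold of control in cytoplasmic RNA and 1.06-fold and 1.63-fold in polysomal RNA. The mean log2 difference was 1.21 (SE 0.36) in cytoplasmic RNA, 0.40 (SE 0.36) in polysomal RNA and 0.80 (SE 0.25) over both (0.68 to 0.92 with single arrays left out), beside within-group SDs of 0.19 to 0.34 (n = 2). The set 1 cytoplasmic value rests on the control array that stood apart. The other XBP1 probe set was too dim to test, with intensities of 6.44 to 13.5. These intensities do not separate the spliced from the unspliced XBP1 mRNA.

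Of the ER folding machinery, 3 genes were measured, and their values differed in direction. HSP90B1 encodes GRP94, the HSP90 chaperone of the ER lumen. The cytoplasmic arrays read 205 and 205 under control and 254 and 118 under RHA siRNA, and the polysomal arrays 260.0 and 186 under control and 219 and 175 under RHA siRNA. Among the 8 genes it alone had a mean below control (log2 -0.21, SE 0.32), and 1 of its 4 within-set comparisons was higher. Leaving out single arrays moved the mean between -0.48, without the cytoplasmic RHA array of set 1, and 0.07, without that of set 2. With the set term the range was -0.42 to 0.004.

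PDIA4 encodes ERp72, a protein disulphide isomerase that forms and reshuffles disulphide bonds. The cytoplasmic intensity was 1085 and 1822 under control and 818 and 3066 under RHA siRNA, and the polysomal intensity 970.0 and 1896 under control and 866 and 3200 under RHA siRNA. The sets went opposite ways: set 1 read 0.753-fold and 0.893-fold of control in the cytoplasmic and polysomal arrays, and set 2 1.68-fold and 1.69-fold. Its mean over both fractions ran from log2 -0.24, without the cytoplasmic RHA array of set 2, to 0.71, without that of set 1. With the set term it ran from 0.02 to 0.44. PDIA4 had 3 further tested probe sets. Over both fractions 2 of them read below control in set 1 (log2 -0.13 and -0.26) and the third near it (0.08). These means joined fractions of opposite sign. In set 1 the 3 probe sets read above control in cytoplasmic RNA (0.32, 0.10 and 0.87), unlike the brightest one. In polysomal RNA of set 1 they read below control (-0.58, -0.62 and -0.70). All of the 3 read above control in set 2 over both fractions (0.25, 0.58 and 1.00).

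SDF2L1 encodes an ER protein that works with the chaperone BiP and a DNAJ partner. Its cytoplasmic intensity was 124 and 42.9 under control and 196 and 108 under RHA siRNA. Its polysomal intensity was 153 and 61.5 under control and 149 and 122 under RHA siRNA. Set 1 read 1.58-fold and 0.974-fold of control in the cytoplasmic and polysomal arrays, and set 2 2.52-fold and 1.99-fold. It was higher in 3 of 4 within-set comparisons as deposited and in 4 of 4 after quantile normalization or median centring. The mean log2 difference was 0.74 (SE 0.48), but 0.35 without the set 2 cytoplasmic control array, 0.41 without the set 2 polysomal one and 1.12 without the set 1 cytoplasmic control array. With the set term and single arrays left out it was 0.50 to 0.97. The control arrays of set 2 read only 0.373-fold of those of set 1.

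As deposited, the brightest probe sets of the 3 ERAD genes read above control in each of the 4 comparisons. The larger differences of HERPUD1 and DERL1 were in set 2. HERPUD1 encodes HERP, an ER membrane protein that helps assemble the retrotranslocation complex. Cytoplasmic arrays read 427 and 194 under control and 446 and 471 under RHA siRNA. Polysomal arrays read 503 and 198 under control and 612 and 548 under RHA siRNA. In set 1 this was 1.04-fold and 1.22-fold of control in the cytoplasmic and polysomal arrays, and in set 2 2.42-fold and 2.77-fold. The control arrays carried most of the gap between the sets: set 2 read 0.423-fold of set 1 under control and 0.972-fold under RHA siRNA. The mean log2 difference was 0.77 (SE 0.40), but 0.44 without the set 2 polysomal control array, 0.49 without the set 2 cytoplasmic one, and up to 1.11 without the polysomal control array of set 1. With the set term and single arrays left out it was 0.53 to 1.01.

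DERL1 and DERL2 encode Derlins, membrane proteins of the channel through which misfolded proteins leave the ER. DERL1 read 1072 and 905 in the cytoplasmic control arrays, 1083 and 1327 in the cytoplasmic RHA arrays, 1152 and 717 in the polysomal control arrays and 1186 and 1529 in the polysomal RHA arrays. Set 1 was close to control (1.01-fold and 1.03-fold in cytoplasmic and polysomal RNA), and set 2 was at 1.47-fold and 2.13-fold. The mean log2 difference was 0.43 (SE 0.26), but 0.25 without the polysomal control array of set 2, and at most 0.60 with any other array left out. With the set term the range was 0.22 to 0.63. After quantile normalization or median centring, both DERL1 and HERPUD1 were higher in 3 of 4 comparisons rather than 4. The further tested probe sets of DERL1, 2 in number, were each higher in 3 of 4, with the polysomal arrays of set 1 at 0.806-fold and 0.575-fold of control.

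DERL2 was among the genes that led to the choice of this group. Its brightest probe set read 284 and 1093 in the cytoplasmic control arrays, 581 and 1964 in the cytoplasmic RHA arrays, 332 and 961 in the polysomal control arrays and 364 and 1708 in the polysomal RHA arrays. Within sets this was 2.04-fold and 1.80-fold of control in cytoplasmic RNA and 1.10-fold and 1.78-fold in polysomal RNA, with a mean log2 difference of 0.71. Without the set term it moved with single arrays: it was 0.15 without the polysomal RHA array of set 2, 0.22 without the set 1 cytoplasmic control array, 0.27 without the cytoplasmic RHA array of set 2, 0.33 without the polysomal control array of set 1 and between 1.09 and 1.27 without any of the others. In those fits the left-out array leaves the sets unequal, so part of the set difference enters the value. With the set term the range was 0.59 to 0.83. The large SE of 0.77 is that of a probe set whose set 2 arrays read 3.34-fold (control) and 3.98-fold (RHA) of set 1. With the set term the SE was 0.18. A second DERL2 probe set differed in set 1: it read 552 in the cytoplasmic control array and 351 in the cytoplasmic RHA array (0.635-fold), and 329 and 330 in the polysomal arrays (1.00-fold). In set 2 that probe set read 1.65-fold and 1.44-fold of control. Both DERL2 probe sets thus read higher under RHA siRNA in set 2, and they disagreed in cytoplasmic RNA of set 1. The difference between them was not tested.

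KDELR2, a KDEL receptor, had the largest and most even difference of the 8 genes. Its cytoplasmic intensity was 54.5 and 75.7 under control and 139 and 184 under RHA siRNA. On polysomes it was 38.8 and 57.7 under control and 93.8 and 164 under RHA siRNA. Every RHA array lay above every control array, and the folds within sets were 2.54 and 2.43 in cytoplasmic RNA and 2.42 and 2.84 in polysomal RNA. The mean log2 difference was 1.35 (SE 0.31; 1.15 to 1.55 with single arrays left out), that is 255% of control, beside within-group SDs of 0.29 to 0.57 (n = 2). The other KDELR2 probe sets, 2 tested and 1 too dim, were also higher under RHA siRNA in 4 of 4 comparisons as deposited, over folds of 1.03 to 4.47 for the tested ones. After median centring, 1 of the tested ones was higher in 3 of 4. Under every scaling tried, the brightest KDELR2 probe set and that of XBP1 kept their 4 RHA arrays above their 4 control arrays.

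The other KDEL receptors read differently, although the difference between receptors was not tested. KDELR1, the most widely expressed receptor of the family, read 984 and 1363 in the cytoplasmic control arrays and 697 and 986 in the cytoplasmic RHA arrays. The polysomal values were 1144 and 1088 under control and 544 and 741 under RHA siRNA. It was lower in 4 of 4 within-set comparisons under each scaling, at 0.638-fold of control (log2 -0.65, SE 0.26; limma adjusted p = 1.00), and its second probe set was lower in 4 of 4 as well, at 0.637-fold. KDELR3 read 1258 and 559 in the cytoplasmic control arrays, 1479 and 607 in the cytoplasmic RHA arrays, 1277 and 376 in the polysomal control arrays and 1251 and 618 in the polysomal RHA arrays, or 1.20-fold of control (adjusted p = 1.00). It was higher in 3 of 4 comparisons as deposited and in 4 of 4 after median centring. A second tested KDELR3 probe set was mixed, with a mean log2 of 0.16. In sets 1 and 2 it read log2 0.57 and -0.07 in cytoplasmic RNA and -0.54 and 0.68 in polysomal RNA. The receptors are close in sequence, and the 3 tested KDELR2 probe sets are of the type (suffix _s_at) whose probes may match more than 1 transcript, so the share of each receptor in these signals is uncertain.

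**Figure D2:**
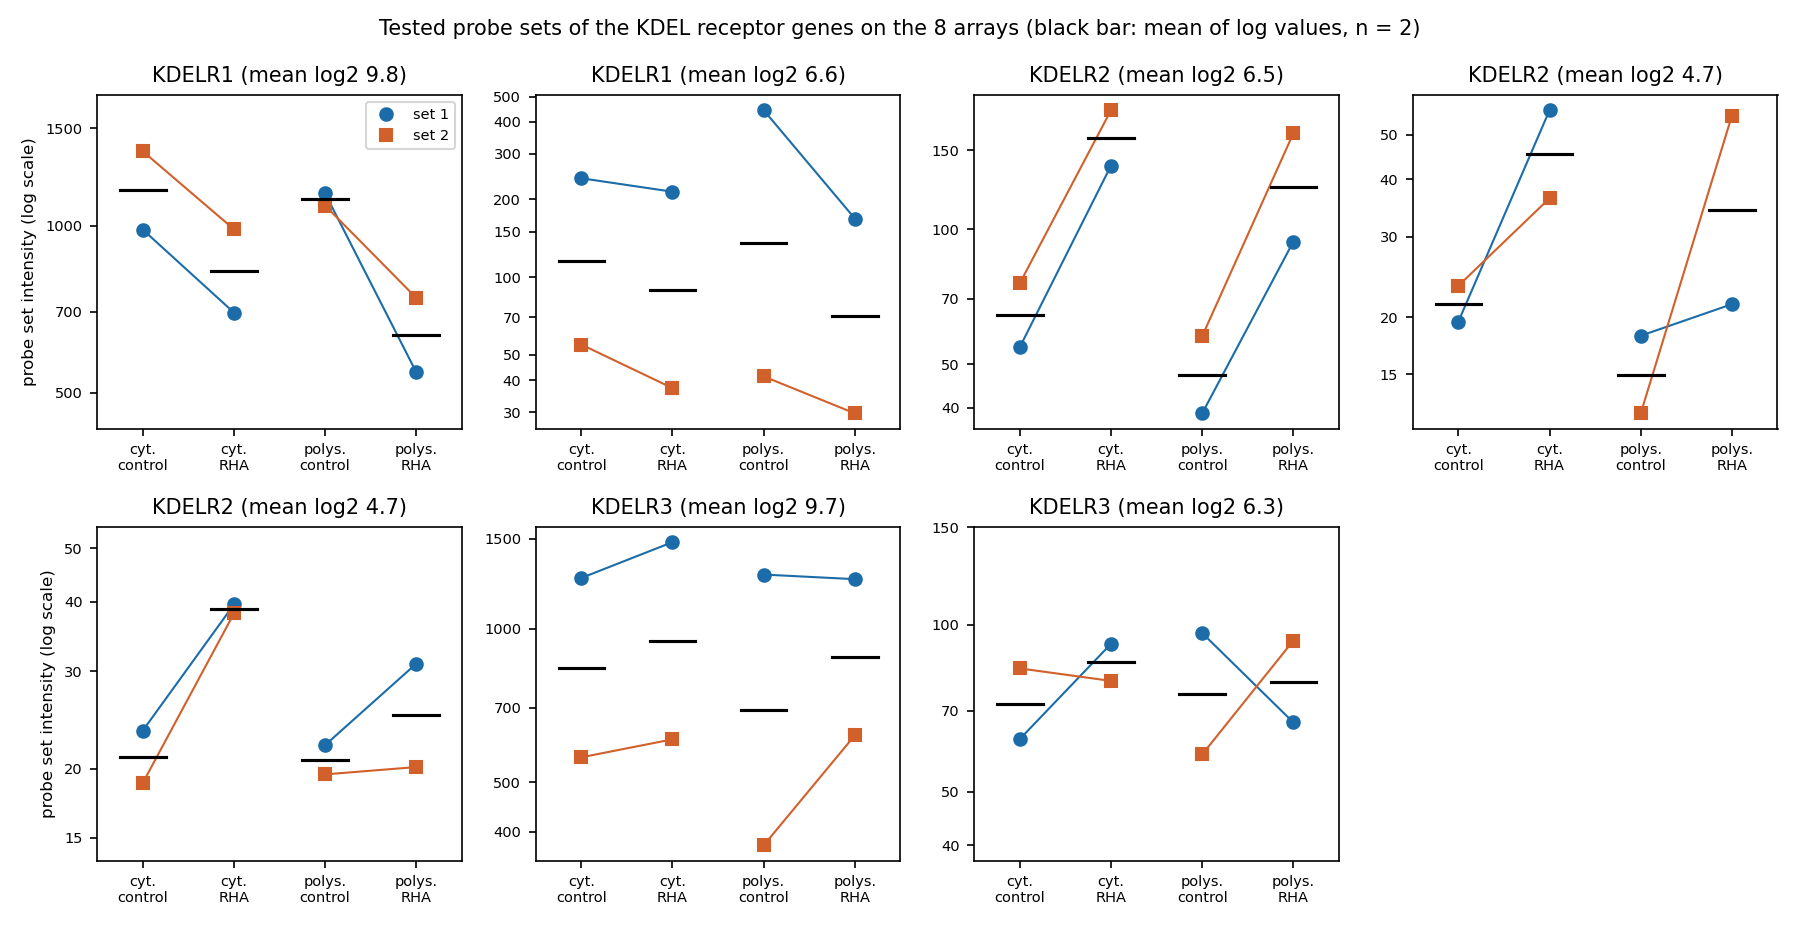
Intensity (log axis) of the 7 tested probe sets of KDELR1, KDELR2 and KDELR3 on the 8 arrays, joined within a set and fraction, with black bars at the mean of log values (n = 2). All 3 KDELR2 probe sets read higher under RHA siRNA in each set and fraction, and both KDELR1 probe sets read lower.

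The size of the siRNA difference depended on the set for most of these genes. Over both fractions the median log2 difference of the 8 genes was 0.24 in set 1 and 0.83 in set 2, against 0.01 in each set over all genes. HERPUD1 was at 0.17 in set 1 and 1.37 in set 2, DERL1 at 0.03 and 0.82, SDF2L1 at 0.31 and 1.16, and PDIA4 at -0.29 and 0.75. XBP1, at 0.88 and 0.72, and KDELR2, at 1.31 and 1.39, differed least between sets. The mean 3' minus 5' signal of 3 control transcripts (actin, EF1A and GAPDH) moved with the comparison in set 1. From control to RHA arrays it changed by log2 -1.07 in cytoplasmic and 1.17 in polysomal RNA of set 1. In set 2 the changes were -0.27 and -0.35. Neither the origin of this signal difference, RNA integrity included, nor its part in the values was tested. With the cytoplasmic control of set 1 left out, the median over both fractions was 0.58, and in cytoplasmic RNA it was 0.69 with 5 of 8 genes above control. These fits lack the set term, so the cytoplasmic control was then set 2 alone, beside RHA arrays of both sets. DERL2 was at -0.03 in cytoplasmic RNA that way, with 1.03 in set 1 and 0.85 in set 2. With the set term and single arrays left out, the medians were 0.54 to 0.87 over both fractions and 0.49 to 0.90 in cytoplasmic RNA.

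**Figure D3:**
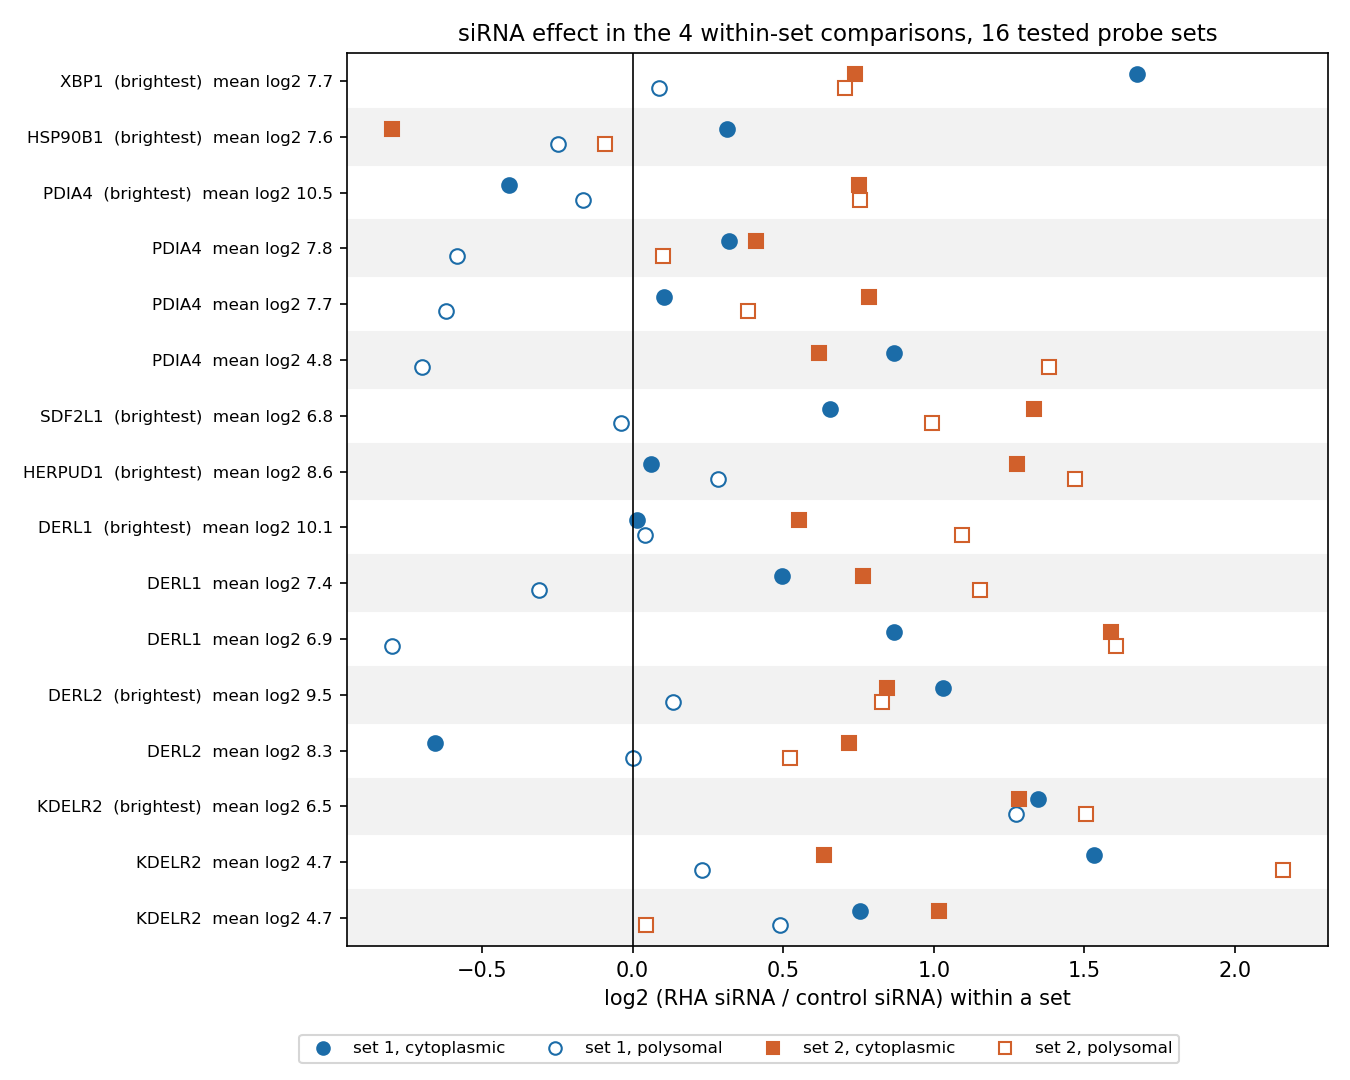
Log2 ratio of RHA to control siRNA for each of the 16 tested probe sets of the 8 genes in the 4 within-set comparisons (circles set 1, squares set 2; filled cytoplasmic, open polysomal). The set 2 symbols mostly lie to the right of those of set 1, and the brightest KDELR2 probe set has its 4 symbols close together, between 1.27 and 1.51.

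Polysome association was the readout that the choice of genes did not use. Averaged over both siRNAs, the polysomal to cytoplasmic ratio of the 8 genes had a median log2 of 0.02, between -0.40 (KDELR2) and 0.24 (HERPUD1), against 0.07 over all genes. Each array was scaled to a similar median, so a ratio is relative to the other mRNAs of that fraction and not an amount on ribosomes. KDELR2 was lower in polysomal than in cytoplasmic RNA in 4 of 4 within-set comparisons, 1 of 8 genes against 5.64% of all genes. The polysomal arrays read 0.712-fold and 0.762-fold of the cytoplasmic ones under control siRNA in sets 1 and 2, and 0.677-fold and 0.888-fold under RHA siRNA. The log2 ratio was -0.40 (95% interval -1.14 to 0.33; limma adjusted p = 1.00), which the test does not separate from 0. HERPUD1 was higher in polysomal RNA in 4 of 4 comparisons as deposited, 1 of 8 against 9.46%, in 2 of 4 after quantile normalization and in 3 of 4 after median centring. Its ratio was 1.18-fold and 1.02-fold under control and 1.37-fold and 1.17-fold under RHA siRNA (log2 0.24, 95% interval -0.73 to 1.20; adjusted p = 1.00). Limma called 0% of probe sets for this contrast, with 59 at an unadjusted p under 0.05, and also 0% with the set term, with 1061.

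The change in polysome loading, the question of the series, is the siRNA difference in polysomal RNA minus that in cytoplasmic RNA. Its median over the 8 genes was 0.07 on the log2 scale (-0.32 in set 1 and 0.10 in set 2), against -0.03 over all genes. Of the 8 genes, 3 were higher in both sets (HERPUD1, DERL1 and PDIA4, against 26.9% of all genes). Another 3 were lower in both sets (XBP1, DERL2 and SDF2L1, against 28.2%). Some of these values were near 0, as for DERL1 in set 1 (0.03), PDIA4 in set 2 (0.004) and DERL2 in set 2 (-0.02). The further tested probe sets of these 3 genes had the other sign. They were at -0.21 and -0.82 for DERL1, -0.61, -0.56 and -0.40 for PDIA4 and 0.23 for DERL2. Among the brightest probe sets XBP1 had the largest value, at log2 -0.81 (95% interval -2.03 to 0.41, limma adjusted p = 1.00). That value came from set 1, at -1.59, while set 2 was at -0.03. In set 1 XBP1 read 1.60-fold of the cytoplasmic level on polysomes under control siRNA and 0.534-fold under RHA siRNA, and in set 2 0.954-fold and 0.932-fold. KDELR2 was at 0.07 (95% interval -1.39 to 1.54), with -0.07 in set 1 and 0.22 in set 2. Its further tested probe sets were at 0.11 and -0.62. DERL2 was at -0.46 (95% interval -4.16 to 3.25) and SDF2L1 at -0.52 (-2.83 to 1.79). With the set term these intervals were -1.29 to 0.37 and -1.58 to 0.55, and that of XBP1 was -1.78 to 0.16. Limma called 0% of probe sets, with 46 at an unadjusted p under 0.05, and 0% with the set term, with 1048. The adjusted p of all 8 genes was 1.00 in both contrasts.

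**Figure D4:**
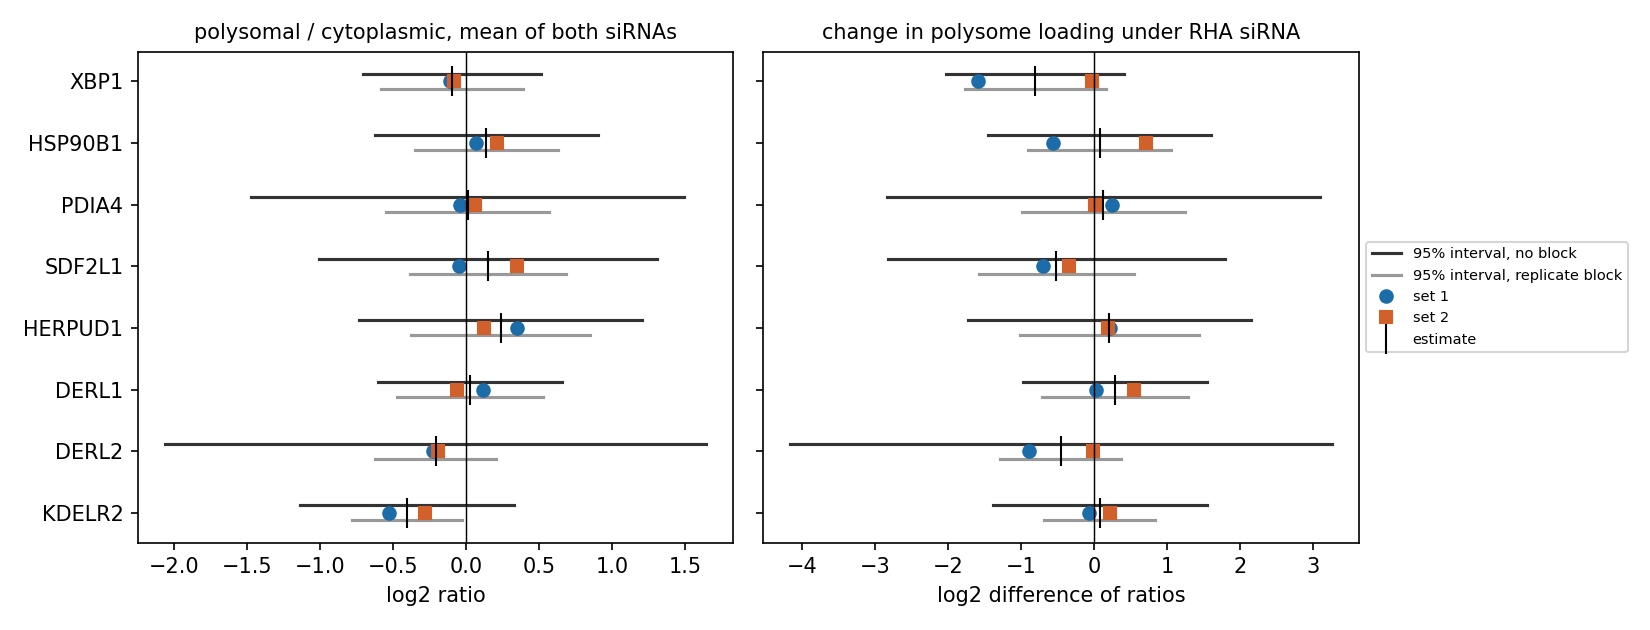
Log2 ratio of polysomal to cytoplasmic RNA over both siRNAs (left) and change in that ratio under RHA siRNA (right) for the 8 genes: the vertical tick is the estimate, black lines are 95% intervals, grey lines those with the set number as a term, and symbols the values of set 1 and set 2. All black lines cross 0; of the grey ones, that of KDELR2 on the left, from -0.78 to -0.03, does not.

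The 3' minus 5' signal of the 3 control transcripts also moved with the polysomal ratio in set 1. From cytoplasmic to polysomal arrays it changed by log2 -1.53 under control and 0.72 under RHA siRNA in set 1. In set 2 the changes were 0.32 and 0.24. The part of this signal in the set 1 loading values, XBP1 included, was not tested.

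The wider pathway was read from 5 lists of 108 further genes by role, of which 78 had a probe set of 1 symbol and 74 were tested. For none of the 5 contrasts did any of the 74 pass the limma test, with or without the set term. At an unadjusted p under 0.05 without the set term there were 4 over both fractions (5.41%, against 2.13% of all genes tested), 4 in cytoplasmic RNA (5.41% against 1.49%) and 0 in polysomal RNA, in loading and in the polysomal ratio (against 0.673%, 0.218% and 0.139%). With the set term there were 11 over both fractions (14.9% against 12.4%), 11 in cytoplasmic RNA (14.9% against 12.3%), 7 in polysomal RNA (9.46% against 5.37%), 5 in loading (6.76% against 4.17%) and 2 in the polysomal ratio (2.70% against 3.12%). Over both fractions 47 of 74 were above control (63.5%, against 53.8% of all genes), with a median log2 of 0.11, but 35 of 74 and -0.03 when the polysomal control of set 2 was left out, and 40 of 74 and 0.02 when its cytoplasmic control was. The values with an array left out are without the set term, so part of the set difference enters them. In 4 of 4 within-set comparisons 8 were higher (10.8%, near the 10.4% of all genes) and 6 lower (8.11%, against 9.76%). DDIT3 and SSR3 were higher with no overlap of the arrays, 2 of 74 (2.70%, against 1.86%). All adjusted p-values of the genes named in what follows were 1.00, and none of the values passed the test.

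Of the sensors and regulators, 9 genes were tested, with a median log2 siRNA difference of 0.22 (0.09 to 0.35 with single arrays left out) and 7 above 0. DDIT3, the stress-induced transcription factor CHOP, was highest at log2 1.06 (SE 0.23; 2.09-fold). It read 281 and 310 in the cytoplasmic control arrays, 885 and 667 in the cytoplasmic RHA arrays, 362 and 391 in the polysomal control arrays and 541 and 735 in the polysomal RHA arrays, with no overlap between siRNAs under any scaling tried. ATF4, the factor that drives DDIT3, was at 0.43 and higher in 4 of 4 comparisons. ATF6, the membrane-bound factor that is cut in the Golgi, was at 0.70 (0.27 in set 1, 1.13 in set 2) with intensities of 70.1 and 42.4 under control and 128 and 117 under RHA siRNA in cytoplasmic RNA. The lowest were ATF3, a stress factor of the same family as ATF4, at -0.27, and MBTPS2, a protease that cuts ATF6, at -0.17. In single fractions the named genes were the same except for CREB3 (-0.26) and TRIB3 (0.54) in polysomal RNA.

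Of the chaperones and folding enzymes, 17 were tested, with a median of 0.17 and 11 above 0, and a median of -0.04 to 0.17 with single arrays left out. As for PDIA4 and SDF2L1, the sets differed: 6 of 17 were above 0 in set 1 (median -0.15) and 14 of 17 in set 2 (median 0.51). ERO1A, the oxidase that recharges disulphide isomerases, was highest at 0.66 and higher in 4 of 4 comparisons, and its polysomal value was 1.07. DNAJB11, a co-chaperone of BiP, was at 0.38. ERP29, a luminal folding factor, was lowest at -0.26, and the disulphide isomerase PDIA5 was at -0.21. By fraction, PDIA3 (0.82) and P4HB (0.72), both disulphide isomerases, were highest in cytoplasmic RNA and PDIA5 (-0.35) and SDF2 (-0.29) lowest, while ERP29 (-0.74) and P4HB (-0.33) were lowest and DNAJC1 (0.50) second to ERO1A in polysomal RNA.

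Of the ERAD genes beyond HERPUD1, DERL1 and DERL2, 14 were tested and 6 were above 0, with a median of -0.05 (-0.01 in set 1 and 0.03 in set 2). The median turned on single arrays, from -0.28 with 4 of 14 above 0 without the polysomal control array of set 2 to 0.26 with 9 of 14 without the set 1 cytoplasmic control array. In cytoplasmic RNA alone, leaving out that last array moved it from -0.06 to 0.39, with 10 of 14 above 0. The highest were AUP1, at 0.78, and SELENOS, at 0.68, both higher in 4 of 4 comparisons; AUP1 recruits a ubiquitin-conjugating enzyme and SELENOS is a membrane partner of the Derlins. SELENOS read 541 and 220.4 in the cytoplasmic control arrays and 842 and 360.4 in the cytoplasmic RHA arrays, and 598 and 233 against 854 and 420 in polysomal RNA. NPLOC4, a cofactor of the extracting ATPase VCP, was lowest at -0.33, followed by the ubiquitin-conjugating enzyme UBE2J1 at -0.31. In cytoplasmic RNA UBE2G2 (1.25) and AUP1 (0.91) were highest and UBE2J1 (-0.38) and UBXN4 (-0.34) lowest. In polysomal RNA SELENOS (0.68) and AUP1 (0.65) were highest and NPLOC4 (-0.56) and EDEM1 (-0.40) lowest.

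For ER-Golgi transport and retrieval 17 genes were tested, with a median of 0.08 and 11 above 0, and a median of -0.05 to 0.19 with single arrays left out. KDELR1 was lowest, at -0.65, and SEC24D, a cargo adaptor of the COPII coat, second lowest at -0.60. SEC24D read 559 and 420 in the cytoplasmic control arrays and 273 and 213 in the cytoplasmic RHA arrays, and 479 and 446 against 465 and 352 in polysomal RNA; it was lower in 4 of 4 comparisons as deposited and in 3 of 4 after median centring. SAR1B, the GTPase that starts COPII coats, was highest at 0.56, and TMED10, a cargo receptor, was at 0.51. Their set 1 values were 0.04 and 0.15. In cytoplasmic RNA ARF1, the GTPase of the COPI coat, was highest at 0.62 and SEC24D lowest at -1.01, and in polysomal RNA SAR1B was at 0.72, KDELR1 at -0.81 and USE1 at -0.30.

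Of the translocon and secretory entry genes 17 were tested, with a median of 0.20 and 12 above 0, 8 in set 1 and 14 in set 2. The median was 0.04 to 0.20 with single arrays left out. SSR3, a subunit of the complex beside the translocation channel, was highest at 1.03 (SE 0.25; 2.04-fold). It read 988 and 669 in the cytoplasmic control arrays, 1934 and 1990 in the cytoplasmic RHA arrays, 782 and 571 in the polysomal control arrays and 1123 and 1190 in the polysomal RHA arrays. The RHA arrays of SSR3 all lay above the control arrays as deposited, but overlapped them after quantile normalization or median centring, with 4 of 4 comparisons higher throughout. DAD1, a subunit of the glycosylating enzyme complex, was at 0.55. SPCS2, of the signal peptidase, was lowest at -0.59 (0.04 in set 1 and -1.21 in set 2), and RPN2 was at -0.21. In cytoplasmic RNA SRP54 (0.89) was second to SSR3 (1.27) and RPN2 (-0.39) lowest, and in polysomal RNA SEC11A (0.39) was second to SSR3 (0.79), with SPCS2 at -0.93 and SSR2 at -0.41.

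**Figure D5:**
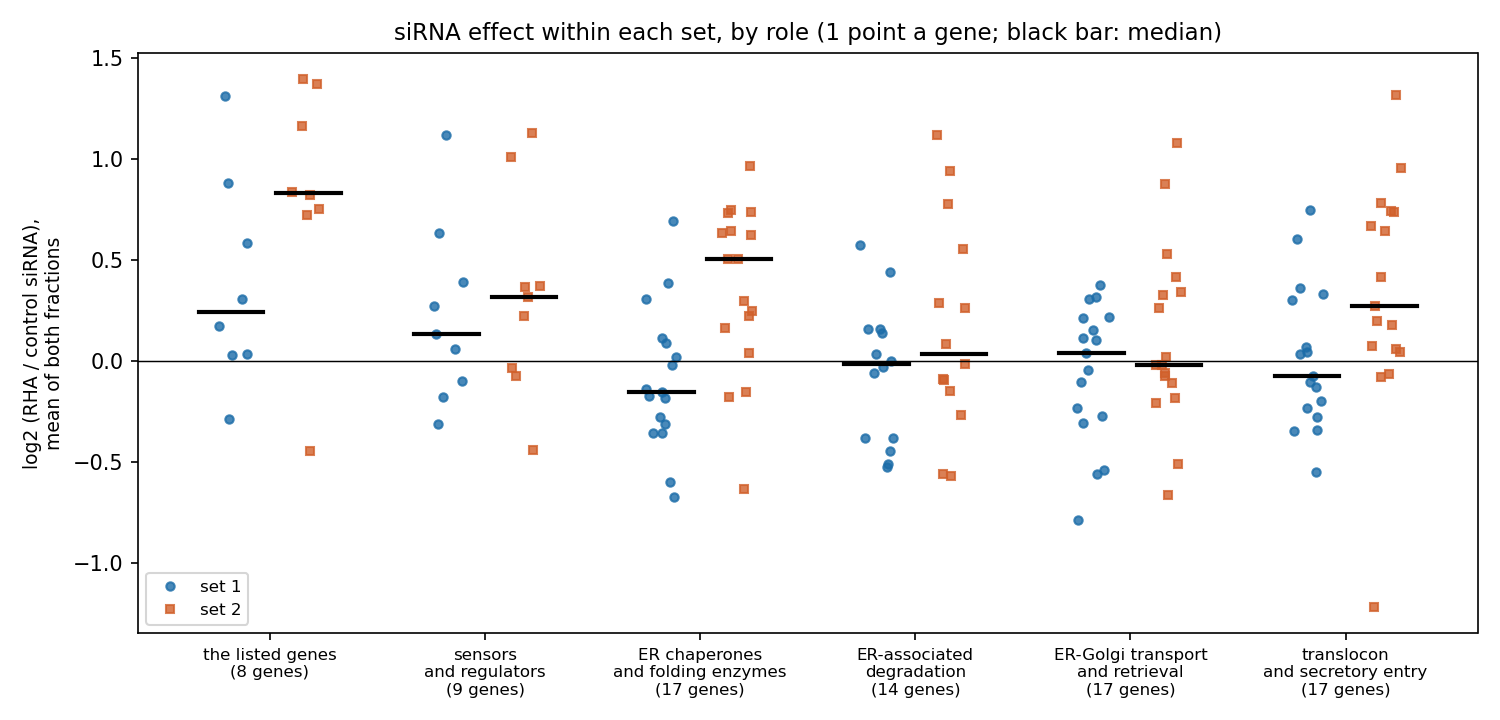
Log2 ratio of RHA to control siRNA, mean of both fractions, for the brightest tested probe set of each gene in set 1 (circles) and set 2 (squares), by role, with black bars at the medians. The bars of the 8 listed genes lie at 0.24 and 0.83, and those of the ERAD list near 0 in both sets. The 8 genes were chosen with this contrast in view, and the ERAD list leaves out HERPUD1, DERL1 and DERL2. The gap between their bars is therefore not a comparison of like groups.

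In the change of polysome loading, the medians of the lists were -0.31 (sensors and regulators), -0.11 (chaperones), 0.08 (ERAD), -0.16 (ER-Golgi transport) and -0.18 (translocon), against -0.03 over all genes. Without the cytoplasmic control array of set 1 they were -0.44, -0.20, -0.34, -0.08 and -0.13 in that order. ERAD then had 4 of 14 genes above 0 in place of 9, the sensors 0 of 9 in place of 2 and all 5 lists together 20 of 74 in place of 30. That fit lacks the set term, so part of the set difference enters these values. The sensors with the lowest values were CREB3 (-0.95) and ATF6 (-0.93), and those with the highest TRIB3 (0.36) and MBTPS2 (0.31). Among chaperones P4HB (-1.04) and ERP29 (-0.97) were lowest and ERO1A (0.80) and DNAJC1 (0.38) highest. For ERAD these were UBE2G2 (-1.40) and NPLOC4 (-0.47) against UFD1 (0.47) and EDEM3 (0.33), and for transport ARF1 (-0.81) and GBF1 (-0.52) against SEC24D (0.81) and SAR1B (0.32). In the translocon list SRP54 (-1.12) and STT3A (-0.75) were lowest and RPN2 (0.35) and SSR4 (0.26) highest. UBE2G2 and SRP54, like XBP1, had most of their value from set 1, at -2.46 and -2.16, against -0.34 and -0.08 in set 2.

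In the polysomal to cytoplasmic ratio the list medians lay between -0.04 and 0.10. With the cytoplasmic control of set 1 left out, ERAD was at 0.31 in place of 0.10, the sensors at 0.17 in place of 0.05, the chaperones at -0.09, and transport and the translocon each at 0.05. Here too the fit lacks the set term. Of the 74 genes, 5 were higher in polysomal RNA in 4 of 4 comparisons (6.76%, against 9.46% of all genes) and 10 lower (13.5%, against 5.64%). SSR3 was lowest but one among the named genes, at -0.52 (SE 0.25), and was lower in 4 of 4 comparisons under each scaling, as was KDELR2. DNAJC1 (-0.81), PPIB (-0.34), TMED10 (-0.43), SAR1B (-0.33) and DAD1 (-0.29) were the other low values of the chaperone, transport and translocon lists. SPCS2 (0.71), EDEM3 (0.42), UBE2G2 (0.42), DNAJC10 (0.38), ERO1A (0.36), SEC24D (0.34), STX18 (0.22) and RPN2 (0.18) were the high values of the last 4 lists. The sensors lay between -0.11 (ATF4) and 0.25 (MBTPS2), with ATF6B at -0.06 and ATF3 at 0.22, and in ERAD AUP1 (-0.17) and EDEM2 (-0.11) were lowest.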

How the data were processed

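RNA from 8 arrays in 4 groups of 2 was analysed. The values are probe set intensities on a linear scale as deposited, taken as already normalised. Per the submitters' processing notes, GCOS and RMA were used, without a stated version or role, and the probe-to-gene annotation is that of the platform. Of 52865 probe sets, 99 were controls. For the other 52766, intensities were put on the log2 scale, and the upper 50% by mean log2 over all arrays (26383; limit log2 4.32, intensity 19.9) were tested. Of these, 16072 had 1 gene symbol, for 10106 genes. Among all 52766, 24956 had 1 symbol and 361 had several, while the annotation names no gene for 27449. Only exact symbols were matched. A gene's value is that of its brightest probe set by mean log2.

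The model had 4 groups and no further term and was fitted in R 4.3.3 by lmFit and eBayes of limma 3.58.1 (two-sided), with Benjamini-Hochberg adjustment over all probe sets tested and a threshold of 0.05. The code was tested on simulated data that carried the same difference between sets: there the model without the set term called none of the planted changes and the model with it only part of them, so an absence of calls does not show an absence of change. Alternatives were the set number as a replicate block, no filter, the upper 25%, quantile normalization, log2(value + 16), median centring, the mean of a gene's tested probe sets, and each array left out. The genes and lists were chosen with earlier results of these data known. Outside the listed genes, the text names DHX9, the 2 highest and 2 lowest genes per role list and contrast, examples from the lists of cell type markers, and ATF4 and KDELR3, chosen after their values were seen. Set differences correlated between groups at r = 0.680 to 0.868 across probe sets. The main model did not take the sets as pairs, so the set difference counts as spread in its SEs, intervals and p-values. With the set term the SE of DERL2 over both fractions was 0.18 in place of 0.77. Arrays have no read depth, so their number limits the precision. No sequences are shown, since none were among the files used.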

Additional observations from a re-analysis of the deposited data

Results flagged for a closer look

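The PDIA4 probe set MmugDNA.9838.1.S1_at read higher in polysomal than in cytoplasmic RNA under control siRNA and lower under RHA siRNA, in set 1 and set 2 alike. The log2 difference between these ratios was -0.56, with a limma adjusted p of 1.00, so the test did not separate it from 0. Its polysomal arrays read 1.02-fold and 1.19-fold of the cytoplasmic ones under control siRNA in sets 1 and 2, and 0.620-fold and 0.898-fold under RHA siRNA. The brightest PDIA4 probe set did not show it, with a loading value of 0.12. The pattern depended on the scaling: the polysomal array was the higher one in 2 of 4 comparisons as deposited and in 1 of 4 after quantile normalization or median centring, so that it was then not seen in both sets.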

How the results depend on the processing

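Each contrast called 0 probe sets by limma under every setting without the replicate block, with every array left out in turn included. The sets carry the replicate numbers of the labels, and with that number as a block 2 probe sets passed over both fractions and 0 in the other contrasts. With the block and an array left out (added after seeing the data), the counts ranged from 0 to 954 over both fractions, 0 to 1150 in cytoplasmic RNA and 0 to 274 in the polysomal ratio. The highest counts all came without the cytoplasmic control array of set 2; without that of set 1, 33 passed over both fractions. Without the cytoplasmic control array of set 2, DDIT3 (adjusted p = 0.0315) and SSR3 (0.0414) passed in the siRNA contrast and SPCS2 (0.0345) in the polysomal ratio. For KDELR2 the block gave a 95% interval of -0.78 to -0.03 in the polysomal ratio (unadjusted p = 0.039, adjusted p = 0.858), and the lowest adjusted p of the 8 genes in loading was 0.967. The block changed no other call.

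With single arrays left out, with or without the block, the median of the 8 genes ranged from 0.45 to 0.87 over both fractions, 0.39 to 0.90 in cytoplasmic RNA, 0.21 to 0.79 in polysomal RNA, -0.35 to 0.30 in loading and -0.15 to 0.18 in the polysomal ratio. The median polysomal ratio was -0.065 after quantile normalization, -0.082 after median centring and -0.020 with the mean of each gene's probe sets. None of the sign changes that follow is a change in a called value, and their cause was not tested. Without the block, a left-out array leaves the sets unequal between groups, so part of the set difference enters the value. In the polysomal ratio, quantile normalization gave HSP90B1 -0.0079, DERL1 -0.060, PDIA4 -0.071 and SDF2L1 -0.020, median centring DERL1 -0.074 and PDIA4 -0.090, and the probe set mean PDIA4 -0.099. In loading the probe set mean gave DERL1 -0.25, KDELR2 -0.15 and PDIA4 -0.36. Values whose sign turned with an array left out ranged as follows, over the fits with and without the block together. For the siRNA contrast over both fractions they were HSP90B1 -0.48 to 0.072, PDIA4 -0.24 to 0.71, MBTPS2 -0.73 to 0.38, PDIA5 -0.66 to 0.24, DNAJB11 -0.10 to 0.85 and RPN2 -0.45 to 0.027. For the 8 genes in cytoplasmic RNA alone they were HSP90B1 -0.80 to 0.31, DERL2 -0.034 to 1.91 and PDIA4 -0.78 to 1.12, and in polysomal RNA HSP90B1 -0.41 to 0.072, DERL2 -0.63 to 1.60, PDIA4 -0.65 to 1.24 and SDF2L1 -0.18 to 1.13. For loading they were HSP90B1 -0.48 to 0.63, HERPUD1 -0.47 to 0.88, DERL1 -0.13 to 0.70, DERL2 -1.57 to 0.66, KDELR2 -0.33 to 0.48, PDIA4 -0.83 to 1.08, SDF2L1 -1.29 to 0.25, TRIB3 -0.63 to 1.36, MBTPS2 -0.80 to 1.43, DNAJC1 -1.09 to 1.85, UFD1 -0.32 to 1.26, EDEM3 -1.52 to 2.18, SAR1B -0.13 to 0.77, STT3A -1.85 to 0.34, RPN2 -0.13 to 0.83 and SSR4 -0.18 to 0.69. For the polysomal ratio they were XBP1 -0.26 to 0.062, HSP90B1 -0.14 to 0.42, HERPUD1 -0.10 to 0.57, DERL1 -0.18 to 0.23, DERL2 -0.77 to 0.35, PDIA4 -0.47 to 0.49, SDF2L1 -0.23 to 0.53, ATF4 -0.30 to 0.073, ATF6B -0.43 to 0.31, MBTPS2 -0.30 to 0.81, PPIB -0.82 to 0.15, AUP1 -0.42 to 0.074, EDEM2 -0.52 to 0.29, EDEM3 -0.51 to 1.35, UBE2G2 -0.16 to 1.00, DAD1 -0.74 to 0.16 and RPN2 -0.059 to 0.42. With the block alone, some of these signs held. Over both fractions these were PDIA4 (0.023 to 0.44), DNAJB11 (0.22 to 0.53) and RPN2 (-0.32 to -0.11). In cytoplasmic RNA it was DERL2 (0.87 to 1.01), and in polysomal RNA HSP90B1, DERL2 (0.24 to 0.72) and SDF2L1. In loading they were DERL2, SDF2L1, TRIB3, UFD1, STT3A and RPN2. In the polysomal ratio they were DERL2, MBTPS2, PPIB, AUP1, EDEM3, UBE2G2, DAD1 and RPN2. The others turned with the block too. The limits are 2 arrays a group, 1 strong difference between sets, probes of another species and intensities with no detection call.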
